A study of Mus musculus with 27 samples.

Results

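Light chain genes of B cells were read across 27 RNA samples: the kappa constant gene Igkc, the lambda constant genes Iglc1, Iglc2 and Iglc3, and the lambda variable genes Iglv1, Iglv2 and Iglv3. These 7 genes were picked by symbol after transcript values had been summed to genes. Igkc, Iglc2, Iglv1, Iglv2 and Iglv3 were measured, 5 of the 7, in a table of 30735 genes. Iglc1 and Iglc3 were not analysed here.

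The lymphomas came from c-myc Igh transgenic mice and were enriched for cells carrying B220, a surface protein of B cells. There were 4 co, 7 hv and 7 cr lymphomas, and 1 (T39) whose title says hv and whose description says CO. They were taken from lung (12 samples) or from peripheral (3) or mesenteric (4) lymph nodes, and all 4 mesenteric ones were cr. The non-malignant samples were B220-purified splenic B cells of healthy mice of the genotypes wt, hv, co and cr, 1 sample of each treated with LPS for 2 days and 1 left resting. The hv, co and cr ones are also described as c-myc Igh transgenic, like the lymphomas, and the wt ones are not. The labels do not spell out hv, cr and co and do not say whether samples came from separate animals, so each p-value reflects only how these samples vary, which may be technical. LPS, a bacterial cell-wall lipid, drives mouse B cells to divide and to begin antibody secretion.

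An antibody or B-cell receptor pairs 2 heavy chains with 2 identical light chains, kappa or lambda. A light chain is built by joining a variable (V) segment to a joining (J) segment, and the RNA is then spliced to a constant (C) exon. A B cell usually rearranges its kappa locus first, turns to lambda when kappa joins fail or make a self-reactive receptor, and as a rule ends with a single light chain, so a clone of B cells carries 1 dominant V segment. Laboratory mice use kappa in most B cells, and their lambda locus has few V genes: Iglv1 joins mainly to the J segments before Iglc3 and Iglc1, and Iglv2 and Iglv3 mainly to the one before Iglc2. Unrearranged J-C units can also be transcribed, giving RNA with a constant exon and no V segment.

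The sequences of the lambda genes show which of them short reads can tell apart. They are 300-base stretches of coding sequence from GENCODE M21 (GRCm38), printed on the coding strand, which is the minus strand of chromosome 16. Iglc2 (chr16:19198553-19198852) and Iglc3 (chr16:19065382-19065681) are printed first, with capitals where they differ from each other, and Iglc1 (chr16:19061772-19062071) follows with capitals where it differs from Iglc2.
Iglc2: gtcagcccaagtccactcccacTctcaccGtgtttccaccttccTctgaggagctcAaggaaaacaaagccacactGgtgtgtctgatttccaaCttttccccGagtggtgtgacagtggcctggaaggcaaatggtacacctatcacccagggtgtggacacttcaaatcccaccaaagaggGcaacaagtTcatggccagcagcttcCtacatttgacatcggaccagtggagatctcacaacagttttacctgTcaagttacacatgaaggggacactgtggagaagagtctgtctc
Iglc3: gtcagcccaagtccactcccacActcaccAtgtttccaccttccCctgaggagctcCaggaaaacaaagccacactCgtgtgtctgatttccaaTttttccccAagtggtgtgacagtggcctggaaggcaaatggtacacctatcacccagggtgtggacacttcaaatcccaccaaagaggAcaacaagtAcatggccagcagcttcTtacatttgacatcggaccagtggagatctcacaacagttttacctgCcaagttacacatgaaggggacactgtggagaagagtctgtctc
Iglc1: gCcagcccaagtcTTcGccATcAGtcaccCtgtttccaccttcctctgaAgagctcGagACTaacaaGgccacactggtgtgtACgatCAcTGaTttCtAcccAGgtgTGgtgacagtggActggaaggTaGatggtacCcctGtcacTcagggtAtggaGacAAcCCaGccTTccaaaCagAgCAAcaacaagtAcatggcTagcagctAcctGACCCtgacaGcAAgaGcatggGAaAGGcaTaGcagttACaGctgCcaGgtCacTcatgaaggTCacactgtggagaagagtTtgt

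Iglc3 matched Iglc2 at 96.5% of coding bases, with 11 mismatches, and shared 106 of its 422 31-base words with it, the word length that kallisto uses by default. Iglc1 matched Iglc2 at 73.6% and shared 0 of 424 such words. Reads of Iglc3 that fall in shared words could therefore count for Iglc2, whereas Iglc1 has no such words in common with it; how many did so was not tested. The Iglc2 transcript in the table (chr16:19198401-19200351, 606 bases, annotated as protein coding) also held all 38 bases of the joining segment Iglj2 and the 116 bases before it, which a V to J join removes.

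Iglv1 (chr16:19085022-19085321) and Iglv2 (chr16:19260403-19260702) are shown for the same reason, with capitals where they differ from each other; the printed windows start a few bases apart.
Iglv1: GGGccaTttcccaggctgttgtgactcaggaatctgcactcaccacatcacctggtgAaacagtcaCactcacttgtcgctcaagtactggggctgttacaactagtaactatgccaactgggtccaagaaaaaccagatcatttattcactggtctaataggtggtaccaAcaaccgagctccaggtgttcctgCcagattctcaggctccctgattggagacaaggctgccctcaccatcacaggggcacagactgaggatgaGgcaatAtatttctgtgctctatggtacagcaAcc
Iglv2: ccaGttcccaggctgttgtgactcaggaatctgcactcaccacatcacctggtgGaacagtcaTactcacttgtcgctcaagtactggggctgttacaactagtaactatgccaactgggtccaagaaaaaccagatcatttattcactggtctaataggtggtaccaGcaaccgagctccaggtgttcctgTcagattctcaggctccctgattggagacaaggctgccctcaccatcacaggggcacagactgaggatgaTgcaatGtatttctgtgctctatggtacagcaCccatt

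Iglv2 matched Iglv1 at 96.4% of aligned coding bases and shared 133 of its 318 31-base words with it, so small Iglv2 values beside a large Iglv1 value are uncertain. Iglv3 shared 0 of 351 with either. On GRCm38, the table's Iglv3 transcript lies at chr16:19241211-19241679 on the minus strand, and its Igkc transcript, a single constant exon of 323 bases, at chr6:70726435-70726757 on the plus strand. The GENCODE M21 model of Igkc runs on to 70726966.

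Igkc, the constant exon shared by all kappa chains, was higher than Iglc2 in 27 of 27 samples on the TPM scale (a relative level per transcript length). In the co lymphomas Igkc stood at 5126 (T30), 3879 (T34), 2547 (T2) and 2338 (T9) TPM. In the hv lymphomas it had a lowest value of 2105, a median of 3343 and a highest value of 5345 TPM, and in the cr lymphomas 1496, 2899 and 5101 TPM. T39 had 5951 TPM, the highest of the 19 lymphomas.

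In LPS-treated cells Igkc was at 6742 (wt), 5550.0 (hv), 4582 (co) and 6971 (cr) TPM. In resting cells it was at 7081 (wt), 3960.3 (hv), 5507 (co) and 4179 (cr) TPM. Of 19 lymphomas, 14 lay below every LPS value and 13 below every resting value, and none lay above either range. For scale, the limma tests given further on called 13.8% of all genes between lymphomas and LPS-treated cells and 31.9% between lymphomas and resting cells, in either direction.

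**Figure D1:**
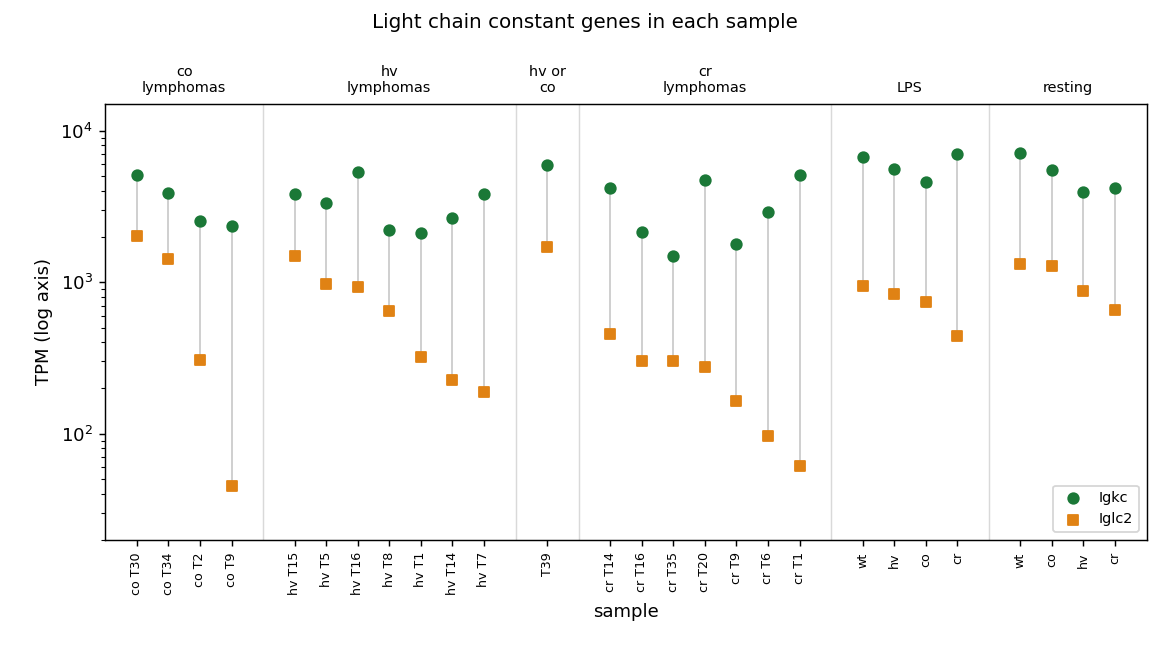
Igkc (circles) and Iglc2 (squares) in TPM on a log axis, 1 column per sample, joined by a line; within each group samples are sorted by Iglc2. Igkc is the upper point in 27 of 27 samples, and Iglc2 spreads from 44.9 TPM in co T9 to 2029.8 TPM in co T30.

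Iglc2 varied far more among lymphomas than Igkc. The co lymphomas had 2029.8 (T30), 1425 (T34), 305 (T2) and 44.9 (T9) TPM. The hv lymphomas had 188 (T7), 226 (T14), 320.3 (T1), 649.8 (T8), 923 (T16), 966 (T5) and 1479 (T15) TPM. T39 had 1719 TPM.

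The 7 cr lymphomas had a lowest Iglc2 value of 61.0 (T1), a median of 273 and a highest of 456 (T14) TPM. LPS-treated cells had 936 (wt), 833 (hv), 743 (co) and 441 (cr) TPM, and resting cells 1318 (wt), 880.0 (hv), 1285 (co) and 658 (cr) TPM. Iglc2 was above every resting value in 4 lymphomas (co T30, co T34, hv T15 and T39), within the resting range in 2 and below it in 13.

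Iglv1, the V gene that joins mainly to Iglc3 and Iglc1, was very high in a single lymphoma. It reached 5802 TPM in the hv lymphoma T8 from a peripheral lymph node, against 365 TPM in hv T1, 275 TPM in cr T35 and 4.19 TPM in cr T6, the next 2 and the lowest lymphoma values. The median over 19 lymphomas was 30.9 TPM. LPS-treated cells had 694 (wt), 1006 (hv), 661 (co) and 211 (cr) TPM, and resting cells 439 (wt), 276 (hv), 507 (co) and 162 (cr) TPM. Of the lymphomas, 16 lay below every LPS value, 15 below every resting value, and T8 alone above both ranges.

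Iglv2, a V gene nearly identical to Iglv1, was close to 0 in the lymphomas. Its highest lymphoma values were 7.84 (cr T35), 6.37 (hv T1) and 5.26 (hv T8) TPM, its median was 0.931 TPM, and it was listed at 0 in cr T1. LPS-treated cells had 205 (wt), 57.8 (hv), 102 (co) and 15.4 (cr) TPM, and resting cells 179 (wt), 34.7 (hv), 107 (co) and 20.6 (cr) TPM. All 19 lymphomas lay below every LPS and every resting sample. In 8 of the 19 the value stood for fewer than 3 read pairs, the floor used here, which for Iglv2 came to between 0.6002 and 1.509 TPM depending on depth.

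Iglv3, a more distant V gene that joins mainly to the Iglc2 unit, had a lowest value of 0.353 (cr T6), a median of 22.3 and a highest value of 171 (hv T15) TPM in lymphomas. T39 followed with 99.9 TPM, hv T14 with 92.6 TPM and cr T35 with 91.9 TPM. LPS-treated cells had 97.0 (wt), 153 (hv), 102 (co) and 16.2 (cr) TPM, and resting cells 177 (wt), 59.1 (hv), 133 (co) and 48.6 (cr) TPM. The lymphomas overlapped both ranges, with 13 of 19 below every resting value.

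**Figure D2:**
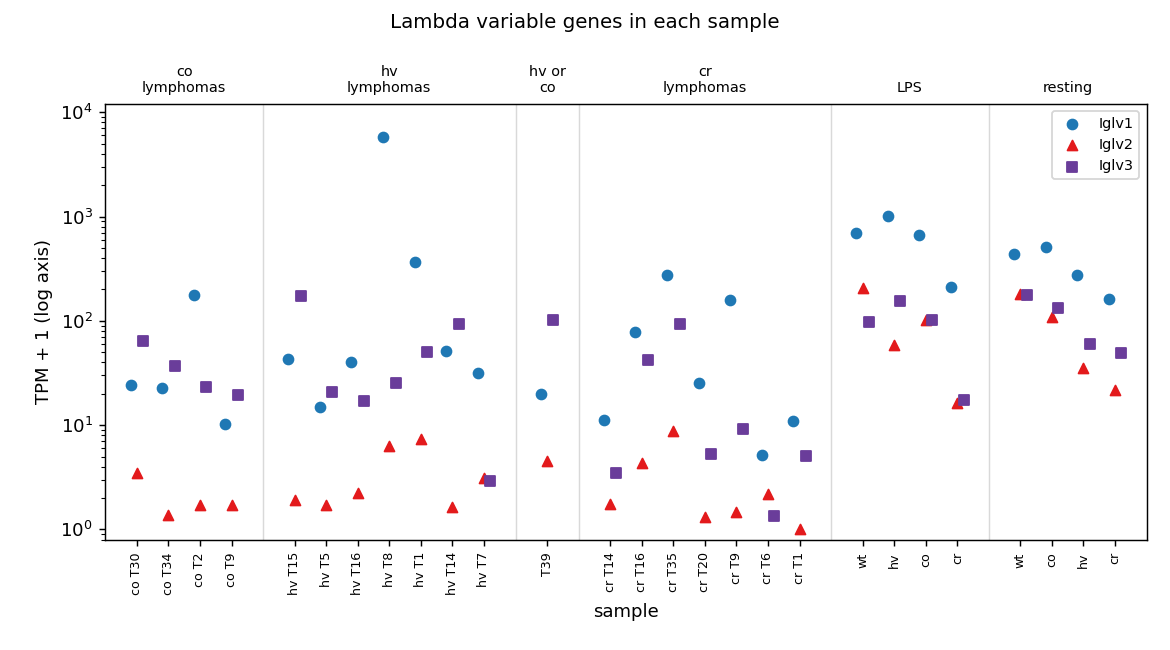
Iglv1 (circles), Iglv2 (triangles) and Iglv3 (squares) as TPM + 1 on a log axis, 1 column per sample in the same order as for the constant genes. Iglv1 in hv T8 stands at 5802 TPM, and the Iglv2 points of all 19 lymphomas lie under those of all 8 non-malignant samples.

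The leading lambda V gene differed between lymphomas. Iglv1 was the highest of the 3 in 12 of 19 lymphomas and Iglv3 in the other 7, while Iglv1 was the highest in 4 of 4 LPS-treated and 4 of 4 resting samples. Iglv3 led in 3 of 4 co lymphomas, in 3 of 7 hv lymphomas, in T39 and in 0 of 7 cr lymphomas. The difference between lines was not tested.

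Which lymphomas use lambda was described by 2 shares, neither of them tested. The constant share is Iglc2 over Iglc2 plus Igkc. It leaves out Iglc3 and Iglc1, to which Iglv1 mainly joins, so a lymphoma using Iglv1 could stay low by it. By this share 0 of 19 lymphomas were above 50%: the lowest was 1.18% (cr T1), the median 12.3% and the highest 28.4% (co T30). It was 5.94 to 13.96% in LPS-treated cells and 13.6 to 18.9% in resting cells. It exceeded 20% in 6 of 19 lymphomas and in 0 of 8 non-malignant samples.

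The 6 were co T30 (28.4%), hv T15 (28.0%), co T34 (26.9%), hv T8 (22.6%), hv T5 (22.4%) and T39 (22.4%). Since the Igkc transcript had an effective length of 148 bases and Iglc2 one of 424 bases, the same share taken over reads is larger. Over reads, 3 of 19 lymphomas passed 50%: co T30 (53.2%), hv T15 (52.7%) and co T34 (51.3%). The LPS-treated samples were then at 15.3 to 31.7% and the resting ones at 31.1 to 40.1%.

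The variable share is Iglv1, Iglv2 and Iglv3 over these and all 103 Igkv genes. It singled out another lymphoma: hv T8, at 79.8%, was the only one above 50%. Next came cr T35 (20.7%) and hv T1 (20.4%), and the other 16 had between 0.255 and 9.39%. LPS-treated cells had 3.62 to 19.6% and resting cells 5.97 to 12.3%. The 3 lymphomas with the highest constant share had variable shares of 1.55% (co T30), 4.81% (hv T15) and 1.25% (co T34).

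**Figure D3:**
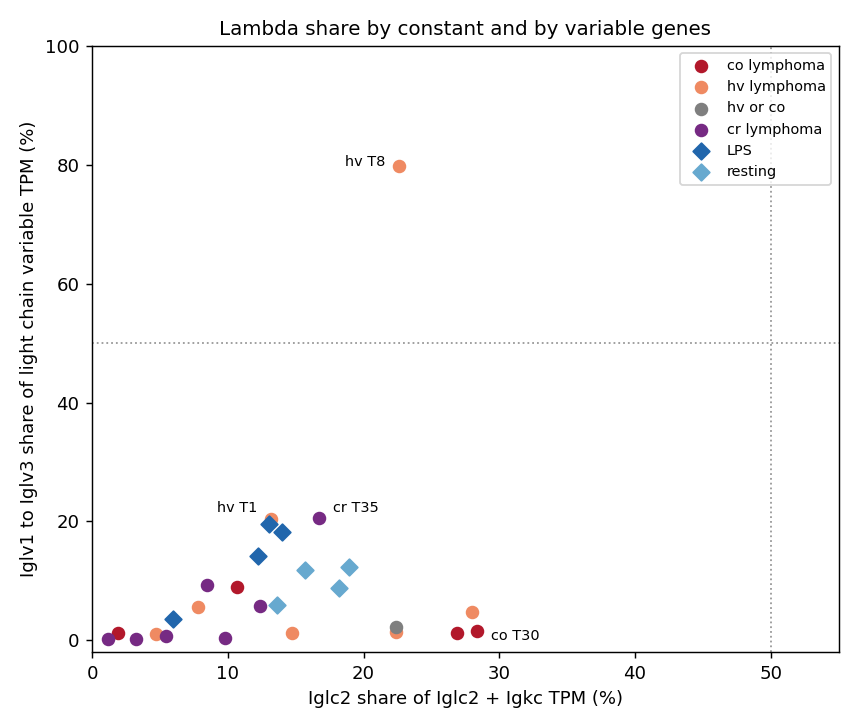
Constant lambda share (x axis, percent of Iglc2 plus Igkc TPM) against variable lambda share (y axis, percent of all light chain V TPM); circles are lymphomas, diamonds non-malignant samples, and dotted lines mark 50%. hv T8 is at 79.8% by variable genes and 22.6% by constant genes, and the lymphomas with the highest constant shares lie near the bottom.

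In hv T8, Iglv1 held 79.4% of all light chain V TPM. Its Iglc2 level was 649.8 TPM, below that of Iglv1. The constant exons that Iglv1 mainly joins, those of Iglc3 and Iglc1, were not analysed here. The same sample held 2222 TPM of Igkc and 1479 TPM of Igkv genes, and its highest Igkv gene, Igkv5-48, made up 20.2% of the Igkv sum at 299 TPM. Jchain, which links secreted antibody, was at 29.45 TPM there, and Ighm, the mu heavy chain, at 2883 TPM.

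Kappa V genes led in the rest. A single V gene held over 50% of the light chain V TPM in 16 of 19 lymphomas, against 0 of 4 LPS-treated and 0 of 4 resting samples, and the leading gene was an Igkv in 18 of 19 lymphomas. The exceptions below 50% were co T9 (49.8%, Igkv4-55), cr T9 (47.4%, Igkv1-135) and hv T7 (19.98%, Igkv14-111). Over the lymphomas 11 Igkv genes took the highest kappa place, led by Igkv1-135 in 5 lymphomas and Igkv1-117 in 3. The highest kappa level was 5525 TPM of Igkv6-15 in co T30. Among non-malignant samples the highest single-gene share was 39.4%, of Igkv12-89 at 2639 TPM in LPS-treated cr cells.

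Constant and variable levels ran together for kappa, and less so for Iglc2 and the lambda V sum. Igkc over the Igkv sum was between 0.843 and 1.502 in the lymphomas, between 1.079 and 1.176 in LPS-treated cells and between 1.03 and 1.19 in resting cells. Across the 19 lymphomas Spearman's rho between Igkc and the Igkv sum was 0.94. Between Iglc2 and the lambda V sum it was 0.34, and between Iglc2 and Iglv3 alone 0.57. The kappa and lambda values are not like for like. Igkc serves all kappa chains, whereas Iglc2 is only part of the lambda constant genes and Iglv1 joins mainly to the others. All these values are descriptions, since all values of a sample share 1 library and 1 TPM total.

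Iglc2 over the lambda V sum had a lowest value of 0.111 (hv T8), a median of 5.40 and a highest value of 34.2 (cr T14) in the lymphomas. It was 0.684 to 1.82 in LPS-treated cells and 1.66 to 2.84 in resting cells. The ratio was above every resting value in 11 lymphomas, below every one in 7 and within the range in 1. In co T30, 2029.8 TPM of Iglc2 stood beside 88.4 TPM of lambda V genes, in co T34 1425 beside 58.3 TPM, and in hv T5 966 beside 34.6 TPM. Part of the Iglc2 level in these lymphomas had thus no matching TPM among Iglv1, Iglv2 and Iglv3, and its source was not tested.

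**Figure D4:**
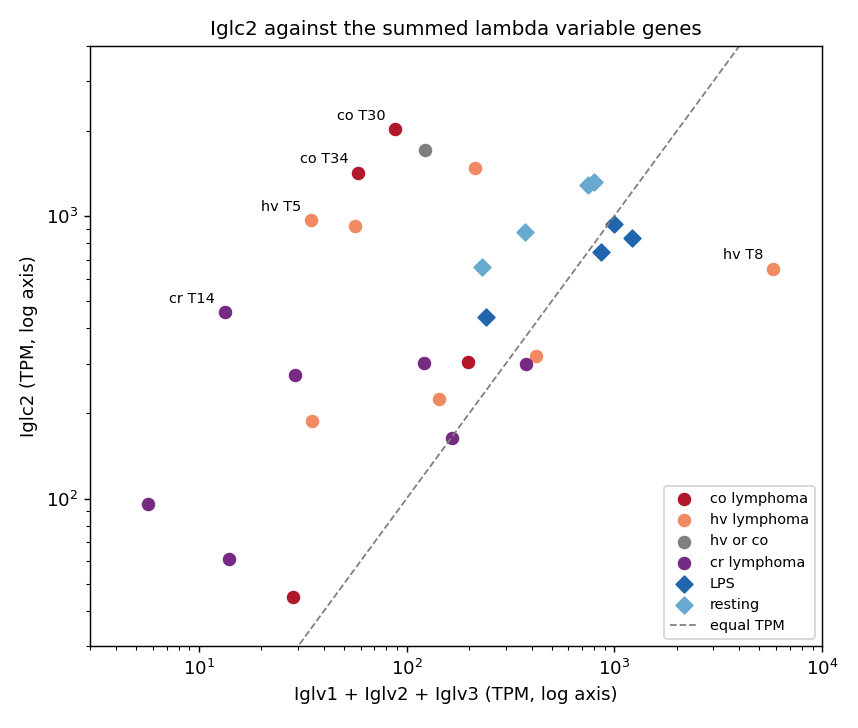
Iglc2 (y axis) against the sum of Iglv1, Iglv2 and Iglv3 (x axis), both in TPM on log axes, with a dashed line of equal TPM. hv T8 lies far to the right of the line at a ratio of 0.111, and hv T5, co T30, co T34 and cr T14 lie far to its left at ratios of 27.9, 23.0, 24.5 and 34.2.

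Against resting cells, 1 of the 5 measured genes changed in the lymphomas, in a limma fit on log2(TPM + 1) with p-values adjusted over all 13239 genes tested; in this comparison 31.9% of all genes were called at an adjusted p under 0.05. Iglv2 fell by 4.65 ± 0.52 on the log2 scale (SE, adjusted p = 2.38e-07, 19 against 4 samples), lower in 19 of 19 lymphomas, and it was called under all 32 alternatives tried. The estimates for the others were -2.72 ± 1.14 for Iglv1 (adjusted p = 0.0702), -2.15 ± 0.95 for Iglv3 (0.0867), -1.40 ± 0.77 for Iglc2 (0.165) and -0.66 ± 0.30 for Igkc (0.0923). Iglv1 passed when hv T8 was left out, at -3.10 and an adjusted p of 0.00686.

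In a bulk sample fewer cells using a gene and less of its RNA per cell cannot be told apart, here as in the comparisons that follow. Over all genes 1921 were called higher and 2308 lower. The resting samples held 11640 to 111337 TPM of 6 erythroid genes, against 16.2 to 1126 TPM in lymphomas and 164 to 2212 TPM in LPS-treated cells. With TPM rescaled without repeat-like and haemoglobin genes the split was 1514 higher and 3231 lower, the median of all genes moved from -0.06 to -0.20, and Igkc passed at -0.80 (adjusted p = 0.0277).

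Against LPS-treated cells, 3 of the 5 genes passed, all lower, beside 13.8% of 12880 genes called in the same limma fit. Iglv2 fell by 4.76 ± 0.53 (SE, adjusted p = 9.14e-07), lower in 19 of 19 lymphomas and called under all 32 alternatives. Iglv1 fell by 3.54 ± 1.15 (adjusted p = 0.0426), with hv T8 against the direction, and Igkc fell by 0.88 ± 0.29 (adjusted p = 0.0461), below every LPS value in 14 of 19 lymphomas. The estimates were -1.80 ± 0.98 for Iglv3 (adjusted p = 0.237) and -0.91 ± 0.77 for Iglc2 (0.468).

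The Igkc and Iglv1 calls were fragile. Igkc stayed past the threshold in 14 of 32 alternatives (adjusted p between 0.0144 and 0.139) and Iglv1 in 15 of 32 (between 0.0028 and 0.148). Leaving out any 1 of the 4 LPS-treated samples ended both calls. The Igkc call also ended without hv T1, hv T5, hv T7, hv T8, hv T14, co T2, co T9, cr T6, cr T9 or cr T16, with adjusted p between 0.0502 and 0.0567, and the Iglv1 call without hv T5, hv T7, hv T15, hv T16, co T9, co T30, co T34, cr T14 or cr T20, with adjusted p between 0.05002 and 0.0538, or without T39 (0.0542).

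With LPS treatment none of the 5 genes passed this test, while 58.2% of 11999 genes were called and 7524 had an unadjusted p under 0.05. The limma estimates were 0.82 ± 0.54 for Iglv1 (adjusted p = 0.225), 0.22 ± 0.23 for Igkc (0.420), 0.11 ± 1.01 for Iglv2 (0.931), -0.35 ± 0.77 for Iglv3 (0.719) and -0.48 ± 0.28 for Iglc2 (0.161). Iglv1 was higher in the LPS-treated sample of all 4 genotypes, by ratios of 1.58 (wt), 3.64 (hv), 1.30 (co) and 1.30 (cr). Iglc2 was lower in all 4, at ratios of 0.710 (wt), 0.947 (hv), 0.578 (co) and 0.669 (cr). Iglv1 passed without the LPS-treated cr sample (1.29, adjusted p = 0.0166), and Iglc2 without the resting cr sample (-0.68, adjusted p = 0.0426) and with TPM rescaled without repeat-like and haemoglobin genes (-0.63, adjusted p = 0.0404). Both genes also passed with genotype as a block, a fit described with the other alternatives.

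**Figure D5:**
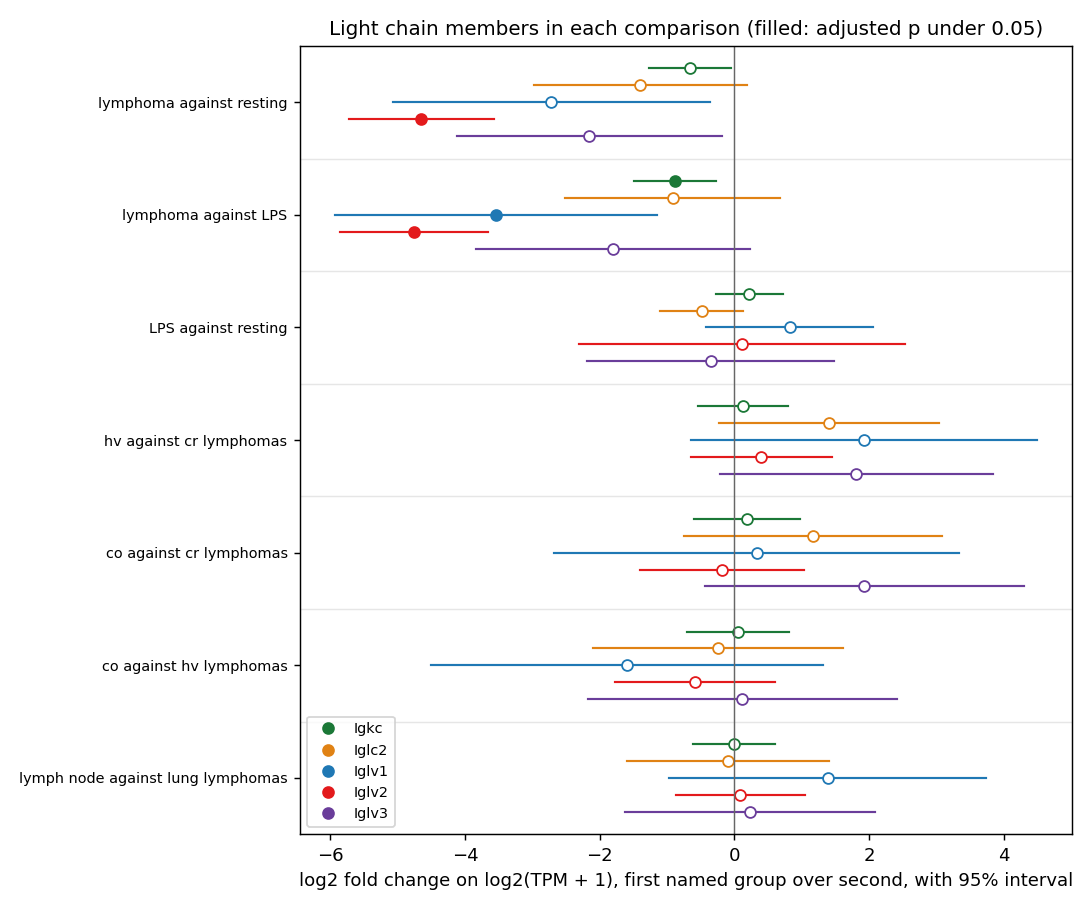
log2 fold changes of the 5 genes (points) with 95% intervals (lines) in each comparison, on the log2(TPM + 1) scale; filled points passed an adjusted p of 0.05. Filled points are Iglv2 against resting and LPS-treated cells, and Igkc and Iglv1 against LPS-treated cells.

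Between lymphoma lines none of the 5 genes passed, in 1 limma fit with line and site as terms over 18 lymphomas and 12480 genes. For hv against cr 0% of genes were called (1140 had an unadjusted p under 0.05), for co against cr 0.00801% (961) and for co against hv 0% (429). hv lymphomas had 679 ± 476 TPM of Iglc2 and cr lymphomas 236 ± 138 TPM (SD, n = 7 each), a log2 difference of 1.41 with a 95% interval from -0.23 to 3.04 (adjusted p = 0.562). Iglv3 averaged 53.4 ± 59.7 TPM in hv lymphomas and 21.7 ± 33.99 TPM in cr lymphomas, a difference of 1.81 with an interval from -0.22 to 3.83 (adjusted p = 0.554), and 1.17 without hv T15.

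co lymphomas averaged 951 ± 936 TPM of Iglc2 (SD, n = 4), a difference from cr of 1.16 with an interval from -0.75 to 3.08 (adjusted p = 0.796); it was 0.49 without co T30 and 2.20 without co T9. Their Iglv1 level was 57.2 ± 78.5 TPM, against 906 ± 2162 TPM in hv lymphomas, where hv T8 sets the mean; the difference was -1.59 with an interval from -4.51 to 1.32 (adjusted p = 0.9997), and -0.67 without hv T8. For Igkc the intervals ran from -0.54 to 0.80 (hv against cr), -0.59 to 0.97 (co against cr) and -0.70 to 0.81 (co against hv).

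Lymph node against lung lymphomas, tested in the same fit, gave no call among the 5 genes, with 0.016% of all genes called and 721 at an unadjusted p under 0.05. Igkc averaged 3260 ± 1339 TPM in node lymphomas and 3558 ± 1402 TPM in lung lymphomas (SD, n = 7 and 12), and its fitted difference over 18 lymphomas was -0.01 with an interval from -0.62 to 0.60 (adjusted p = 0.998). For Iglv1 the difference was 1.39 with an interval from -0.97 to 3.74 (adjusted p = 0.941), and 0.15 without hv T8. The 2 lymphomas with the highest Iglv1 were hv T8 from a peripheral node and hv T1 from lung. Site largely coincides with the style in which lymphoma names were written, which was treated as a possible batch. All 7 node lymphomas had names with separated parts, as did only hv T16 and hv T7 of the lung lymphomas fitted. Effects of site and of name style can therefore hardly be told apart.

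Most kappa V genes fell in the lymphomas. Of 103 Igkv genes, 73 of the 91 tested fell against resting cells and 0 rose, beside 31.9% of all genes called in either direction. The median log2 change was -3.22, against -0.06 over all genes. Igkv6-23 (-5.52), Igkv16-104 (-5.44), Igkv5-43 (-5.17) and Igkv6-17 (-5.01) changed most. Against LPS-treated cells 66 of 89 fell and 0 rose (median -3.30, all genes 0.03), beside 13.8% of all genes called in either direction. A gene could enter either fit through its 4 non-malignant samples alone, and such a gene could hardly be called higher. Part of these counts and medians was thus set by the filter. In the fit over lymphomas alone 78 Igkv genes were tested. LPS treatment lowered 5 of 92 and raised 0, beside 58.2% of all genes called in either direction, and the largest change was in Igkv1-115 (-2.28). Under the 3 other scalings, with 1 non-malignant sample left out and by the style in which lymphoma names were written (parts joined or separated), 63 to 77 fell against resting cells and 60 to 68 against LPS-treated cells. With LPS the counts moved more: 13 were lower with TPM rescaled without repeat-like and haemoglobin genes, 9 under median-of-ratios scaling or without the LPS-treated wt sample, and 4 were lower and 3 higher without the resting wt sample. Without the resting co sample 3 were lower, and without the LPS-treated co sample 3 were lower and 2 higher. The 5 Igkj segments gave 0 calls in these 3 comparisons, in limma fits where 5693 genes (against resting) and 3615 genes (against LPS) had an unadjusted p under 0.05. With joined names alone, 1 Igkj segment was higher in lymphomas than in resting cells and 1 higher than in LPS-treated cells. With LPS, 1 was lower without the resting or the LPS-treated wt sample, and 1 was higher without the LPS-treated co sample.

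Changes of the companion genes named from here on are log2 fold changes of genes past the threshold in the same limma fits. Chain folding genes, which fold and link new antibody chains in the endoplasmic reticulum, rose with LPS in 5 of 6 cases, beside 58.2% of all genes called in either direction, most in Mzb1 (1.69), Hsp90b1 (1.52), Pdia6 (1.51) and Xbp1 (1.18). In lymphomas 4 of 6 were lower than in LPS-treated cells: Xbp1 (-1.55), Hsp90b1 (-1.39), Pdia6 (-1.17) and Hspa5 (-1.09), beside 13.8% of all genes called. Against resting cells 0 of 6 passed, beside 31.9%. Under the other scalings, with 1 non-malignant sample left out and by name style, the count was 5 with LPS and 3 to 5 between lymphomas and LPS-treated cells. Against resting cells it stayed at 0, except that 1 was higher with separated names alone. Of 5 receptor partners, LPS raised Ighm (0.90) and lowered Ighd (-3.51), Cd79a (-1.33) and Cd79b (-1.23), the last 2 being the signalling chains of the receptor, so that 4 of 5 passed beside 58.2% of all genes. Lymphomas had less Ighd (-2.88) and Jchain (-2.73) than resting cells, 2 of 5 beside 31.9% of all genes, and more Cd79b (0.97) and Cd79a (0.75) than LPS-treated cells, 2 of 5 beside 13.8%. Under the same alternatives, 1 to 3 partners were lower in lymphomas than in resting cells and 0 to 2 higher than in LPS-treated cells. Without the LPS-treated cr sample, LPS raised 0 and lowered 4 of the 5 partners.

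Of 12 transcription factors known to act at light chain loci, LPS lowered 7, with the largest changes in Ebf1 (-2.09), Foxo1 (-1.60), Spi1 (-1.03) and Spib (-0.98). Lymphomas had less Ebf1 (-1.496), Mef2c (-1.34) and Irf4 (-0.88) and more Tcf3 (0.84) than resting cells, and less Irf4 (-1.02) and more Foxo1 (0.93) than LPS-treated cells. The 7, 4 and 2 of 12 called are close to the 58.2%, 31.9% and 13.8% of all genes called in these comparisons, so the counts are no result about the list. Under the same alternatives LPS lowered 6 to 8 of them, and it raised 2 without the resting wt sample. In lymphomas 0 to 5 were lower than in resting cells and 0 to 1 lower than in LPS-treated cells. From 0 to 1 were higher in lymphomas than in resting cells and 0 to 3 higher than in LPS-treated cells. Of the 7 surrogate light chain and recombination genes 1 could be tested with LPS, and Vpreb3 fell by 2.93. Of the 3 that could be tested in lymphomas, 0 passed against either group in limma. With joined names alone, 1 of these 3 was higher than in LPS-treated cells.

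The genes whose TPM ran most alike over the 19 lymphomas were taken by Spearman's rho among 11065 candidates, without immunoglobulin segments, predicted genes and pseudogenes. For Igkc they were Fhl3 (0.84), Gpd2 (0.83), Cln6 (0.81), Ero1l (0.79) and Fli1 (0.78). For Iglc2 they were Klf12 (0.93), Il17rb (0.91), Mthfs (0.91), Fam149b (0.91) and Tldc1 (0.90). Picking the highest of so many candidates over 19 lymphomas gives high rho by itself, and none of these links was tested. Iglc2 itself had rho of 0.57 with Iglv3, 0.35 with Iglv2 and 0.14 with Iglv1, and Iglv1 had -0.58 with Igkc.

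The depth was 11531400 to 32032600 read pairs per sample (median 21464200), recovered from the steps of the low TPM values. All 10 B-cell markers were measured and reached 1 TPM in at least 1 lymphoma, 1 LPS-treated and 1 resting sample; their sum was 1401 to 4003 TPM in lymphomas, 1084 to 2230.3 TPM in LPS-treated cells and 2963 to 5720 TPM in resting cells. The 8 plasma cell markers summed to 149 to 718 TPM, 592 to 740.0 TPM and 319.9 to 531 TPM in the same groups. The 6 T-cell markers summed to 6.22 to 179 TPM in lymphomas, highest in T39, 13.4 to 20.8 TPM in LPS-treated cells and 26.3 to 65.8 TPM in resting cells, and the 6 macrophage markers to 5.89 to 136 TPM, 5.09 to 15.9 TPM and 117 to 777 TPM. Their part in the light chain results was not tested.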

How the data were processed

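RNA of B220-purified B cells was depleted of ribosomal RNA and read from both ends of stranded libraries, per the labels' protocols. FastQC and kallisto 0.43 were run, with mm10 (GRCm38) as the build, per the submitters' processing notes. The authors deposited TPM for 88198 transcripts; the annotation and the strand setting were not given in the sources used here. Genes that overlap, on either strand, may therefore hold each other's reads. Transcript TPM were summed to 30735 genes by Ensembl identifier, and 740 genes had no symbol. Kallisto splits reads that fit several transcripts, so near-identical V genes are uncertain.

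TPM keeps no depth. TPM times the deposited effective length, divided by its commonest low step, gave read pairs, of which 60.7 to 75.6% were whole within 0.02. They served for depth, for a floor of 3 read pairs and for shares over reads, and cover counting error only. The lambda share of constant genes used Iglc2 and Igkc.

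A gene entered a fit if 4 or more of its samples reached a TPM of 1. Tests ran on log2(TPM + 1), a scale that understates changes of low genes, with limma 3.58.1 (trend and robust settings, R 4.3.3, package data.table, version 1.17.8) and Benjamini-Hochberg adjustment over all genes at 0.05. Each comparison with non-malignant cells used only its own groups; lines and sites shared 1 fit. Intervals are at 95%. The scripts were tested on simulated data. Alternatives changed the pseudocount, filter, scaling, limma settings, blocks and samples. Shares and counts of lymphomas have no test. The members and lists were chosen with earlier results of these data known, and the joined or separated writing of lymphoma names was treated as a possible batch. Named were all members in every sample, at most 4 called genes of each companion list with the largest change, and the 5 genes with the highest rho. Sequences came from GENCODE M21, and 31-base words were counted with Python 3.11.15 and Biopython 1.88.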

Additional observations from a re-analysis of the deposited data

Results flagged for a closer look

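The variable lambda share stood apart from the other samples of its line in 2 lymphomas. In all, 35 combinations of a measure and a group were checked for a sample far from the rest. Chance marks about 1 in 20 of independent values, so 2 of 35 is close to the number that chance alone would mark. The measures overlap, so this rate is approximate, and the check does not show whether either lymphoma stands apart by chance. In hv T8 the share was 79.8%, against 1.075 to 20.4% in the other 6 hv lymphomas. In co T2 it was 8.96%, against 1.202 to 1.547% in the other 3 co lymphomas. co T2 had 175 TPM of Iglv1, 22.3 TPM of Iglv3 and 0.70 TPM of Iglv2 beside 2009 TPM of Igkv genes, of which Igkv14-126 held 91.0%.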

How the results depend on the processing

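Of 911 member values under alternatives, 808 kept their direction and side of the threshold, 35 lost a call, 10 gained one and 58 changed sign; each value that changed sign was one that did not pass. Iglv2 kept its call in 32 of 32 alternatives against resting cells (-5.56 to -4.14) and in 32 of 32 against LPS-treated cells (-5.67 to -4.22). Against LPS-treated cells, Igkc and Iglv1 also lost their calls with no filter on low values (adjusted p = 0.0651 and 0.0586) and with separated lymphoma names alone (0.139 and 0.136). Igkc did so with limma's plain settings too (0.0516). Leaving out the wt samples (0.139 and 0.112) is here the same fit as leaving out the LPS-treated wt sample. The 32 alternatives count that fit under both names, and likewise the fit without the resting wt sample against resting cells. With joined names alone, Igkc (-0.80, adjusted p = 0.0319) and Iglv1 (-3.02, 0.0144) passed against resting cells, and under median-of-ratios scaling Igkc did (-0.71, 0.0453). The cause was not tested.

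Lymphomas above the lambda threshold numbered 0 by constant genes, 1 by variable genes, 3 over reads and, by constant genes, 6 at 20%. Iglc2 alone was the quantity already used. Genes called against resting cells fell to 2749 without wt samples (2749 to 4607 with 1 sample left out, lowest without resting wt), and against LPS-treated cells to 1103 (821 to 2004; 1103, 835 and 821 without LPS wt, co and hv). For hv against cr there was 1 call with no filter and 1 in lung alone. For co against cr there were 0 with a pseudocount of 0.1, with no filter and under both rescalings (0 to 10 with 1 left out), for co against hv 1 with no filter, and for site 0 with no filter and 1 each under median-of-ratios scaling and plain limma (0 to 14).

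Genotypes were not taken to pair LPS with resting samples, since not every correlation of deviations exceeded 0.1: they were 0.31 (co), 0.19 (cr), 0.058 (hv) and 0.053 (wt), and those of shared tumour numbers were 0.22 (T9), 0.16 (T1), 0.041 (T16) and -0.19 (T14). With genotype as a block 7250 genes were called and Iglv1 (0.82, adjusted p = 0.00997) and Iglc2 (-0.48, 0.0468) passed. The block by tumour number used only lymphomas whose number another lymphoma shared, in a fit with nearly as many terms as samples. There co was co T9 alone and lymph node was cr T1 alone, so the co and site values each rest on 1 sample. For hv against cr this fit gave 4 calls. Signs turned for Iglv1 (-3.93) and Iglc2 (-1.85) in co against cr and Iglv3 (-0.65) in co against hv. By site they turned for Igkc (1.61), Iglv1 (-4.45) and Iglv3 (-1.59).

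Other sign changes were Iglv2 with LPS (-0.031, rescaled), Igkc (-0.032, median of ratios) and Iglv1 (-0.00045, lung) in hv against cr, Iglv1 (-1.53) in co against cr and Iglc2 (0.30) in co against hv in lung alone, and by site Igkc (0.14, median of ratios; 0.062, rescaled), Iglc2 (0.056, median of ratios) and Iglv2 (-0.12, pseudocount 0.1). With 1 sample left out, values ran from -0.43 to 0.79 (Iglv2) and -0.72 to 0.34 (Iglv3) with LPS; Igkc from -0.036 to 0.27 in hv against cr; Igkc from -0.0095 to 0.38, Iglv1 from -0.41 to 1.07 and Iglv2 from -0.46 to 0.074 in co against cr; Igkc from -0.16 to 0.22, Iglc2 from -0.97 to 0.87 and Iglv3 from -0.45 to 0.56 in co against hv; and by site Igkc from -0.14 to 0.12, Iglc2 from -0.48 to 0.13, Iglv2 from -0.18 to 0.28 and Iglv3 from -0.37 to 0.68.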

Other observations

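Of the listed surrogate light chain and recombination genes, Rag1, Rag2 and Vpreb3 varied widely among the lymphomas. The others stayed low, at most at 2.56 (Igll1), 1.88 (Vpreb1), 0.197 (Vpreb2) and 1.31 (Dntt) TPM in any lymphoma. The samples named here were chosen after their values were seen. Rag1, a subunit of the recombinase that joins V and J segments, was at 58.2 TPM in cr T35, 46.7 TPM in cr T9, 27.8 TPM in co T9, 12.7 TPM in hv T1 and 5.66 TPM in hv T14. It was at most 0.0459 TPM in LPS-treated cells and 0.405 TPM in resting cells. In these lymphomas Iglv1 was at 275 (cr T35), 156 (cr T9), 9.27 (co T9), 365 (hv T1) and 49.8 (hv T14) TPM. hv T8, with 5802 TPM of Iglv1, had 0.745 TPM of Rag1.

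Vpreb3 reached 680.5 TPM in cr T14 and 618 TPM in co T9. It was at 20.6 TPM in hv T8, and at 0.5 to 7.8 TPM in hv T15, T39, co T30, co T34 and hv T16, which also had 923 to 2029.8 TPM of Iglc2. hv T5 went against this order, with 493.1 TPM of Vpreb3 beside 966 TPM of Iglc2. LPS-treated cells had 3.2 to 6.3 TPM and resting cells 21.3 to 72.1 TPM. No test was run on this order.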
